A study of Mus musculus with 24 samples.

Results

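Jchain and Sdc1 were followed as their rows of the count table, 2 genes of 18470 in all, in 24 RNA-seq libraries of sorted mouse memory B cells (named csMBC in the labels). Both were taken by symbol, with no use of their values, although earlier results of these data were known when they were chosen. The libraries form 6 groups of 4. Cells were sorted from lung as CCR6+CD69+ or as CCR6-CD69-, or were circulating, each from mice of the genotype SCAP fl/fl hCD20-TamCre (SCAP cKO) and of the genotype SCAP +/+ hCD20-TamCre (WT). Every mouse therefore carried the hCD20-TamCre transgene, named for the B cell gene CD20 and tamoxifen, and the groups differ in whether Scap could be deleted by it. All mice were made allergic through the nose with house dust mite extract and met the same extract again 6 weeks later, and in the cKO mice SCAP was removed ahead of that recall. No age is given. The labels give lung as the tissue even for circulating cells. Nothing says which libraries came from separate animals, so the spread behind each p-value is that between these libraries and may be technical.

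Plasma cells are the antibody-secreting end stage of B cells, and both genes are among their usual markers. Jchain encodes the joining chain, a small protein that links antibody units into the polymers of IgM and IgA and lets the epithelial receptor Pigr carry them into secretions. Sdc1 encodes syndecan-1 (CD138), a membrane protein with heparan sulfate chains that sits on the surface of plasma cells and binds survival factors such as APRIL (gene Tnfsf13). Memory B cells are known to keep both low until they are restimulated and turn into plasma cells. Both genes are also made outside that lineage: Jchain in plasmacytoid dendritic cells, and Sdc1 in epithelia and some macrophages.

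The promoters are shown because the question was whether the genes move together. Each is the stretch from 250 bases before to 50 bases after the gene's start, from RefSeq (build GRCm38.p6, whereas the submitters' processing notes name mm39 for the counts). Jchain lies at chr5:88527848-88528147, minus strand, and Sdc1 at chr12:8771146-8771445, plus strand. Capitals mark every match, on either strand, of the letters searched. These were GGGCGG (the GC box), CCAAT (the CCAAT box), TATAA (a start-site element), the E-box CACGTG with its shorter inner part ACGTG, the ETS-type letters GAGGAA, the octamer of antibody genes (ATTTGCAT), and the sterol element bound by SREBP, which SCAP escorts, in 1 exact form.
Jchain: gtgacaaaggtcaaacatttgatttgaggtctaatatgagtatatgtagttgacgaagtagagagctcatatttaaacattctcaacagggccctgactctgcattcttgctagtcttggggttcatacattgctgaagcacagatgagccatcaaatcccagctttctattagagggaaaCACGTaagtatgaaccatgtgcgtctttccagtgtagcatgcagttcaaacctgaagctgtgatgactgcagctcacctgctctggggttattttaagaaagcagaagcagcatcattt
Sdc1: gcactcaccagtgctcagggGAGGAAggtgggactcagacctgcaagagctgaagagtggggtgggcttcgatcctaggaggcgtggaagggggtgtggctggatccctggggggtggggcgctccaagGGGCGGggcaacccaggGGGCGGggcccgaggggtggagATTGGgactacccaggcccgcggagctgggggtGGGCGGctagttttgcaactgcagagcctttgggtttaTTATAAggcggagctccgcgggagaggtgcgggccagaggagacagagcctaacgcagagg
The 2 windows share no match. Jchain has 42.3% G and C, and the single match in it is ACGTG on the minus strand of the window as printed (CACGT), 69 bases before the start, a motif that 19.6% of 32851 promoters hold. Sdc1 has 66.3% G and C, against a median of 52.7% over all promoters. It holds GGGCGG 3 times (35.7% of promoters have at least 1), CCAAT once as ATTGG (37.4%), GAGGAA once (28.3%), and TATAA on each strand in 1 overlapping stretch, TTATAA (24.9%). The E-box (7.15% of promoters), the octamer (1.74%) and the sterol element (0.0913%) were in neither window.

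Total counts ran from 129025 to 8566243 per library, and 3 counts corresponded to 0.350 to 23.3 CPM (counts per 1e+06 counts of a library); such floors cover counting error only. Fewest counts were in SCAP cKO lung CCR6-CD69- replicate 4, at 129025 with 2134 genes seen, and next in WT circulating replicate 2, at 356782. In SCAP cKO lung CCR6-CD69- replicate 1 and WT lung CCR6-CD69- replicate 2, Chil3 of lung macrophages took more counts than any other gene. The B cell gene Ms4a1 (CD20) averaged 1005 CPM over all libraries. Replicates 1 and 2 of every group are labelled batch 1, and replicates 3 and 4 batch 2. Scap, which was to be lost in the cKO, averaged 82.7 ± 46.3 CPM in SCAP cKO and 86.6 ± 31.7 CPM in WT lung CCR6+CD69+ libraries, 90.0 ± 64.5 CPM in SCAP cKO and 149 ± 25.0 CPM in WT lung CCR6-CD69- libraries, and 223 ± 152 CPM in SCAP cKO and 104 ± 84.5 CPM in WT circulating libraries (SD, n = 4). Its log2 fold changes, SCAP cKO over WT, were 0.08, -0.54 and 1.26 and did not pass (edgeR, adjusted p 1, 0.998 and 0.673), so the counts over the whole gene do not show the deletion.

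Jchain was detected in all 24 libraries and was low in lung CCR6+CD69+ cells of both genotypes. In SCAP cKO lung CCR6+CD69+ replicates 1 to 4 it stood at 84.7, 137, 96.1 and 163 CPM, a mean of 120.3 ± 36.5 (SD, n = 4). In WT lung CCR6+CD69+ replicates 1 to 4 it stood at 174, 268, 84.4 and 275 CPM, a mean of 200.4 ± 90.2. The 2 genotypes overlapped, and the highest library of this population held 275 CPM.

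In lung CCR6-CD69- cells Jchain was higher and far less even. SCAP cKO replicates 1 to 4 held 499, 403, 372 and 1426 CPM (mean 675 ± 504, SD, n = 4), the highest of them in the smallest library. WT replicates 1 to 4 held 3232, 325, 1984 and 4677 CPM (mean 2554 ± 1849). Of the WT libraries 3 lay above all 4 SCAP cKO libraries and replicate 2, the one led by Chil3, lay below all of them. The highest WT library held 14.4 times as much as the lowest.

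Circulating cells were between these extremes. SCAP cKO circulating replicates 1 to 4 had 936, 403, 317 and 729 CPM of Jchain (mean 596 ± 288, SD, n = 4), and WT circulating replicates 1 to 4 had 1186, 824, 1983 and 2597 CPM (mean 1648 ± 797). Only SCAP cKO replicate 1 reached into the WT range, above WT replicate 2.

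Sdc1 was scarce in most libraries, at 0 in 6 of the 24, and its 4 highest libraries held 104 to 315 CPM. Of the 6, 5 were SCAP cKO libraries, all of batch 2, with 2134 to 6377 genes detected. All SCAP cKO libraries of batch 1 had a count of Sdc1, with 6881 to 7316 genes detected. The part of batch and depth in these 0 values was not tested. SCAP cKO lung CCR6+CD69+ replicates 1 to 4 had 0.328, 1.20, 0 and 0 CPM, 6 counts in all, and the 2 libraries at 0 could have held up to 1.44 and 1.07 CPM. WT lung CCR6+CD69+ replicates 1 to 4 had 3.97, 4.62, 4.36 and 3.62 CPM (mean 4.14 ± 0.44, SD, n = 4), from 84 counts in all. These WT libraries were the most even group, and all 4 of them were above all 4 SCAP cKO libraries. That separation was found in 2.60% of the 6779 genes tested in this comparison.

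The other populations held single libraries with much Sdc1 beside others with little or none. SCAP cKO lung CCR6-CD69- replicates 1 to 4 had 42.7, 0.842, 0 and 0 CPM, the 0 values allowing up to 2.26 and 23.3 CPM, and WT replicates 1 to 4 had 13.0, 13.2, 40.6 and 235 CPM. SCAP cKO circulating replicates 1 to 4 had 2.74, 122, 0 and 315 CPM (floor of replicate 3, 2.21 CPM), and WT circulating replicates 1 to 4 had 104, 0, 26.8 and 44.1 CPM (floor of replicate 2, 8.41 CPM). In each of these groups the SD exceeded the mean: 10.9 ± 21.2 CPM in SCAP cKO and 75.5 ± 107 CPM in WT lung CCR6-CD69-, and 110.0 ± 148 CPM in SCAP cKO and 43.7 ± 44.0 CPM in WT circulating libraries (n = 4).

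**Figure D1:**
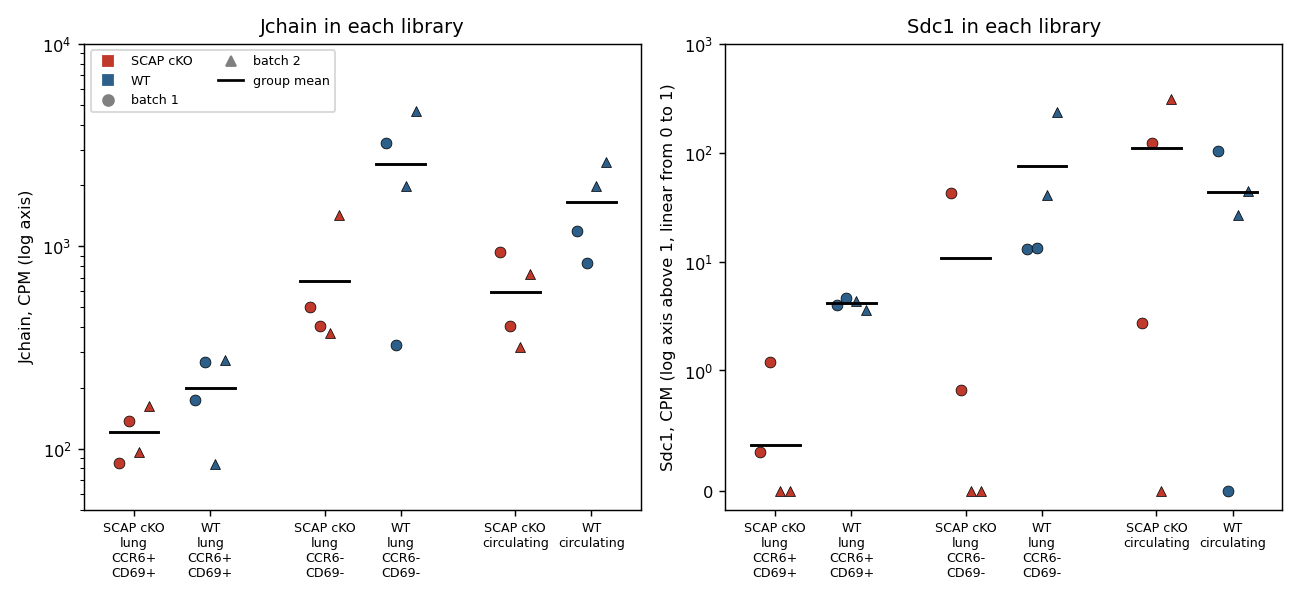
CPM of Jchain (left, log axis) and Sdc1 (right, log axis above 1 and linear from 0 to 1) in each of 24 libraries, with SCAP cKO in red, WT in blue, batch 1 as circles, batch 2 as triangles and bars at the group means (n = 4). Jchain is at most 275 CPM in all lung CCR6+CD69+ libraries. Sdc1 is 0 in 6 libraries: 5 SCAP cKO libraries, all of batch 2, and 1 WT library of batch 1.

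Ranked by mean CPM, Jchain ran from WT lung CCR6-CD69- through WT circulating, SCAP cKO lung CCR6-CD69-, SCAP cKO circulating and WT lung CCR6+CD69+ down to SCAP cKO lung CCR6+CD69+. Of the 5 pairs of neighbours, only SCAP cKO circulating and WT lung CCR6+CD69+ did not overlap (two-sided exact permutation test, n = 4 each, p = 0.0286, the smallest that 4 against 4 allows, adjusted p 0.143 over 5 pairs). Such a separation, SCAP cKO circulating above WT lung CCR6+CD69+, was found in 2.48% of genes tested. For Sdc1 the order was SCAP cKO circulating, WT lung CCR6-CD69-, WT circulating, SCAP cKO lung CCR6-CD69-, WT lung CCR6+CD69+ and SCAP cKO lung CCR6+CD69+, and only the last 2 did not overlap (exact permutation p = 0.0286, adjusted p 0.143 over 5 pairs). In both orders of mean CPM, lung CCR6+CD69+ cells came last in both genotypes. For Sdc1, SCAP cKO lung CCR6-CD69- ranked above WT lung CCR6+CD69+ through replicate 1 (42.7 CPM). By median it was lower, at 0.421 against 4.17 CPM. On the log2 scale of the test that pair was reversed (difference -0.78). So was the top pair, SCAP cKO circulating and WT lung CCR6-CD69- (-0.94). No pair of neighbours passed after adjustment for either gene, and every other pair overlapped.

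The comparison of lung CCR6+CD69+ with lung CCR6-CD69- cells asks what sets the lung cells with both surface markers apart from those without. In WT mice Jchain fell in lung CCR6+CD69+ cells, with a log2 fold change of -3.67 ± 0.62 (SE; edgeR quasi-likelihood test over 6779 genes with Benjamini-Hochberg adjustment, adjusted p 0.00275), with the smallest p of all genes. It was lower in 4 of 4 libraries, a separation in this direction found in 3.89% of genes tested. Sdc1 stood at -4.37 ± 1.75 without passing (adjusted p 0.858), although its 4 lung CCR6+CD69+ libraries too were all below the 4 others. Jchain was 1 of 20 genes called, 0.295% of those tested, and all 20 were lower in lung CCR6+CD69+. The call of Jchain was lost without WT lung CCR6+CD69+ replicate 1 (-3.63, adjusted p 0.0543) and when only the 2 groups entered the fit (-3.67, adjusted p 0.207).

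In SCAP cKO mice the same comparison gave the same call for Jchain. Its log2 fold change was -2.55 ± 0.59 (edgeR, adjusted p 0.0268), all 4 lung CCR6+CD69+ libraries were below the 4 lung CCR6-CD69- libraries, and such a separation was found in 0.605% of genes. Here 31 genes, 0.457%, were called, all lower. Sdc1 was at -4.71 ± 1.81 (adjusted p 0.315), a value carried by SCAP cKO lung CCR6-CD69- replicate 1, one of the 2 libraries led by Chil3: without it the value was -0.14, and without both -0.16. The call of Jchain was lost without the 2 smallest libraries (-1.94, adjusted p 0.274), in limma voom (-2.14, adjusted p 0.569) and when any of 5 libraries was left out in turn: each of the 4 lung CCR6+CD69+ ones (-2.66 to -2.40) or lung CCR6-CD69- replicate 4 (-1.82, adjusted p 0.396).

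Markers of other cells differed between the same groups, in both directions. The marker lists were chosen with earlier results of these data known, so their values are a description. Of 11 tested plasmacytoid dendritic cell markers, 10 were lower in WT lung CCR6+CD69+ than in WT lung CCR6-CD69- (median log2 fold change -5.68, against -0.02 over all genes tested). Of the 11, 5 were called lower, Tbc1d8 among them, as were 0.295% of all genes tested. Summed, the 11 took 0.0594 to 0.149% of counts in SCAP cKO lung CCR6+CD69+ libraries, against 0.182 to 0.399% in SCAP cKO lung CCR6-CD69- libraries. The WT lung CCR6+CD69+ libraries ran from 0.0823 to 0.154%, against a range from 0.197 to 0.238% for WT lung CCR6-CD69-. The most abundant of them over all libraries was Tcf4, which B cells express too, at 723 to 1458 CPM in WT lung CCR6+CD69+ libraries, against 486 to 1308 CPM for WT lung CCR6-CD69-. Between 0 and 6 of the 11 were at 0 in a WT lung CCR6+CD69+ library, and between 0 and 9 in a SCAP cKO one. Ccr9, a homing receptor of these cells, was at most 20.7 CPM and down to 0 among WT lung CCR6+CD69+ libraries, against 136 to 366 CPM for WT lung CCR6-CD69-, while Siglech and Bst2 were not analysed here. Macrophage and monocyte markers took between 0.0541 and 0.366% of WT lung CCR6+CD69+ libraries, against 0.112 to 3.84% for WT lung CCR6-CD69-, and 0.0124 to 0.363% against 0.171 to 5.23% in SCAP cKO. Granulocyte markers were higher in lung CCR6+CD69+, 4 of 4 tested in each genotype (median log2 fold change 2.22 in SCAP cKO and 3.25 in WT mice, 0 called). Of 7 conventional dendritic cell markers, 5 were higher in SCAP cKO lung CCR6+CD69+ (0 called) and 5 were lower in WT lung CCR6+CD69+ (1 called, Clec10a, which the plasmacytoid list holds too). The part of any of these markers in the results for Jchain and Sdc1 was not tested, and in bulk samples fewer cells of a type and less RNA per cell cannot be told apart.

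The comparison with circulating cells asks what sets lung cells apart from those in circulation. In WT mice Jchain fell in lung CCR6+CD69+ (log2 fold change -3.02 ± 0.60, edgeR, adjusted p 0.00201), with all 4 libraries below all 4 circulating ones, as for 3.72% of genes. Sdc1 was at -3.56 ± 1.67 and did not pass (adjusted p 0.372). By the same test 80 genes, 1.18%, were called, 69 of them (1.02%) lower. Within batch 1 Jchain stood at -2.27 and within batch 2 at -3.60, and neither passed with 2 libraries a group (adjusted p 0.205 and 0.210 in edgeR).

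In SCAP cKO mice both genes fell in lung CCR6+CD69+ against circulating cells, the one comparison in which both passed. Jchain had a log2 fold change of -2.68 ± 0.59 (edgeR, adjusted p 0.00578), its 4 libraries lying below all 4 circulating ones as in 2.40% of genes. Sdc1 had -8.18 ± 2.09 (edgeR, adjusted p 0.0195), which sets 6 counts over 4 libraries against 781 over 4. Of those 781 counts, 117 were in circulating replicate 2 and 659 in replicate 4, and replicate 3 had none, so the groups overlapped. There were 104 genes called (1.53%), 99 of them (1.46%) lower. The call of Sdc1 was lost when any of 6 libraries was left out: each lung CCR6+CD69+ one (adjusted p 0.0512 to 0.106) or circulating replicate 2 (-8.04, adjusted p 0.0558) or 4 (-6.67, adjusted p 0.0759). It was lost too with the replicate number as a block within genotype (-8.17, edgeR, adjusted p 0.0522). That of Jchain was lost without circulating replicate 1 (-2.03, adjusted p 0.0583), and limma voom called neither gene (Jchain -2.48, adjusted p 0.479, and Sdc1 -5.57, adjusted p 0.155).

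The circulating libraries also held most RNA of the T and NK cell marker list. The 13 markers of that list took 0.206 to 0.373% of counts in SCAP cKO and 0.167 to 0.345% in WT circulating libraries, and at most 0.0277% in any lung library. All 13 were lower in lung CCR6+CD69+ than in circulating cells in each genotype, 10 of them called in each, with Cd4, Nkg7 and Eomes among them. The CD3 and T cell receptor genes of the list were not called in either genotype. Plasmacytoid dendritic cell markers took 0.306 to 0.632% in SCAP cKO and 0.266 to 0.450% in WT circulating libraries. Of the 11 tested, 9 were called lower in SCAP cKO and 8 in WT lung CCR6+CD69+. Over all genes tested, 1.46% in SCAP cKO and 1.02% in WT were called lower in these comparisons with circulating cells. The part of these cells in the Jchain and Sdc1 values was not tested.

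Between lung CCR6-CD69- and circulating cells, neither gene passed. In WT mice Jchain was at 0.66 ± 0.56 (log2 fold change, lung CCR6-CD69- over circulating; edgeR, adjusted p 0.995) and Sdc1 at 0.81 ± 1.56 (adjusted p 0.999), where 0.177% of genes were called. In SCAP cKO mice Jchain was at -0.13 ± 0.57 (adjusted p 0.935) and Sdc1 at -3.46 ± 1.73 (adjusted p 0.353), where 0.310% were called. Libraries of both genes overlapped in each case.

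**Figure D2:**
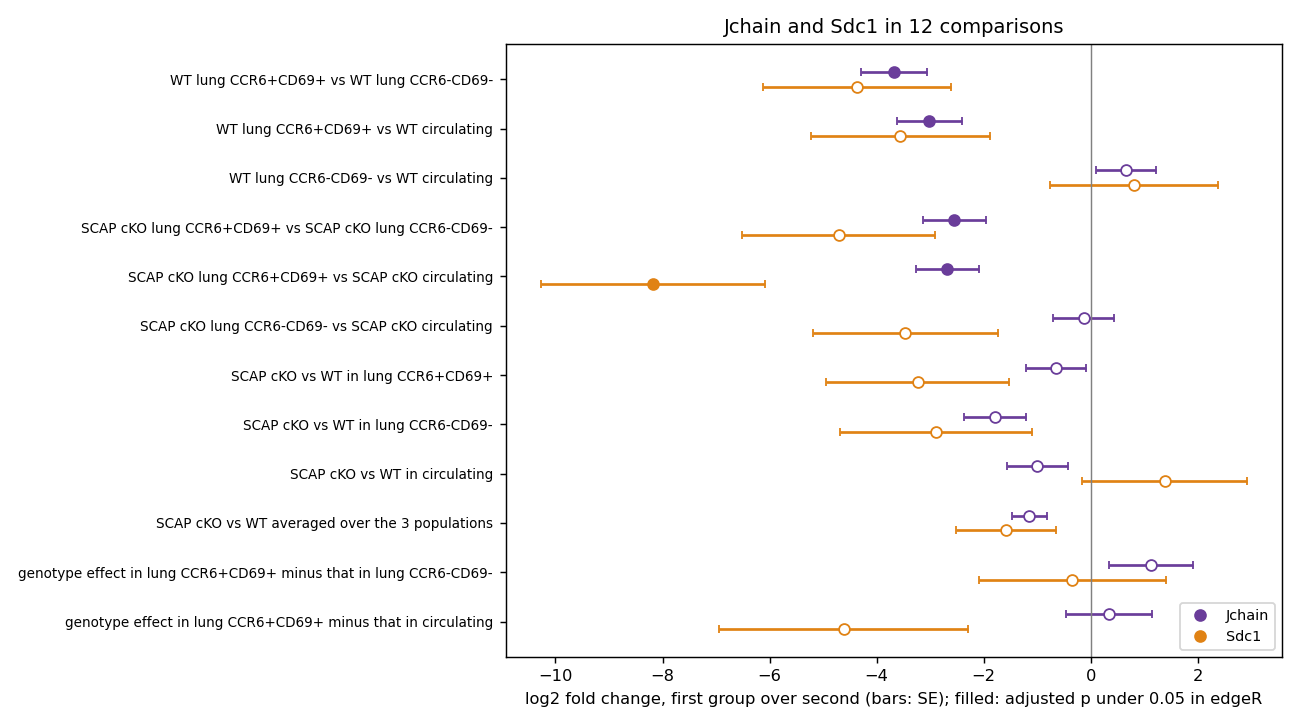
Log2 fold changes of Jchain (purple) and Sdc1 (orange) in 12 comparisons, first-named group over second, with bars of 1 SE and filled points where the edgeR adjusted p was under 0.05. Jchain is filled in the 4 comparisons of lung CCR6+CD69+ with another population, and Sdc1 in 1 of them, SCAP cKO lung CCR6+CD69+ against SCAP cKO circulating.

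The genotype comparisons ask what loss of SCAP before recall did to the 2 genes. Jchain was lower in SCAP cKO than in WT in all 3 populations, by means of 120.3 against 200.4 CPM in lung CCR6+CD69+, 675 against 2554 CPM in lung CCR6-CD69- and 596 against 1648 CPM in circulating cells, and none of these differences passed. The log2 fold changes, SCAP cKO over WT, were -0.66 ± 0.56, -1.79 ± 0.57 and -0.998 ± 0.57 (edgeR, adjusted p 1, 0.610 and 0.573), and groups overlapped in each population. In lung CCR6-CD69- cells the unadjusted p was 0.00326, and the median of all genes tested was itself at -0.31. By edgeR 0 genes, 0.00%, were called in each population, with 155, 496 and 693 at an unadjusted p under 0.05, whereas DESeq2 called 5, 72 and 226 and limma voom 0 in each.

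Averaged over the 3 populations, Jchain was at -1.15 ± 0.33 in SCAP cKO against WT (edgeR, unadjusted p 0.00103, adjusted p 0.171), with 8 genes, 0.118%, called. It passed without the low-count filter (-1.22, adjusted p 0.00436) and without the 4 libraries that were under 500000 counts or led by Chil3 (-1.74, adjusted p 1.08e-04). In lung CCR6-CD69- cells alone, it passed under the same 2 settings (-1.81, adjusted p 0.0481, and -3.01, adjusted p 0.00660). DESeq2 (-1.06, adjusted p 0.164) and limma voom did not call it. Over all alternatives the average stayed between -1.74 and -0.99.

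Sdc1 differed in direction between populations without passing in any. Its log2 fold changes, SCAP cKO over WT, were -3.23 ± 1.71 in lung CCR6+CD69+ (edgeR, adjusted p 1), -2.89 ± 1.80 in lung CCR6-CD69- (adjusted p 0.784), and 1.38 ± 1.54 in circulating cells (adjusted p 0.812), where it rests on SCAP cKO replicate 4: without that library it was -0.36. The average was -1.58 ± 0.94 (adjusted p 0.764). Whether the genotype effect differed between populations was tested as an interaction. The effect in lung CCR6+CD69+ minus that in circulating cells was -4.61 ± 2.33 for Sdc1 (edgeR, unadjusted p 0.0521, adjusted p 0.885) and 0.34 ± 0.80 for Jchain (adjusted p 1). The effect in lung CCR6+CD69+ minus that in lung CCR6-CD69- was -0.34 ± 1.75 for Sdc1 and 1.13 ± 0.79 for Jchain (adjusted p 1 for both). By edgeR 0 genes (0.00%) passed in either interaction, with 367 and 235 at an unadjusted p under 0.05, against 30 and 6 called by DESeq2.

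Whether the 2 genes follow each other was asked over the 24 libraries on the log2 CPM scale (TMM-scaled, prior count of 2). Libraries with more Jchain tended to have more Sdc1: Pearson's r was 0.572 (permutation p 0.00383, adjusted p 0.0230 over 6 correlations) and Spearman's rho 0.574 (permutation p 0.00385, adjusted p 0.0231). The permutation exchanged libraries freely across the 6 groups. These p therefore also reflect differences between groups, and do not measure a relation within them. Without the 2 libraries farthest from the Jchain median, r was 0.528. Leaving out any 1 library gave r between 0.508 and 0.648, and over the 18 libraries with a count of Sdc1 it was 0.626. The 6 libraries with no Sdc1 count had 96.1 to 1426 CPM of Jchain.

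Within batches and populations the relation was less certain. Within batch 1 r was 0.464 (n = 12, permutation p 0.129) and within batch 2 it was 0.644 (n = 12, permutation p 0.0280, adjusted p 0.0839), so neither batch passed after adjustment. Within populations, over both genotypes, r was 0.470 in lung CCR6+CD69+, 0.499 in lung CCR6-CD69- and 0.356 in circulating libraries (n = 8 each, exact permutation p 0.229, 0.200 and 0.368), and rho in circulating libraries was 0.0714. Without the 2 libraries farthest from the Jchain median these r became 0.794, 0.148 and -0.0903, so within populations the value depended on those libraries. After each value was centred on its group and batch, r over all 24 was 0.319 (permutation p 0.130). On the raw CPM scale it was 0.410 (p 0.0528). The same library was highest for both genes in 1 of the 6 groups, WT lung CCR6-CD69-, where replicate 4 had 4677 CPM of Jchain and 235 CPM of Sdc1. In SCAP cKO circulating cells the library with most Sdc1, replicate 4 at 315 CPM, had 729 CPM of Jchain, below the 936 CPM of replicate 1, which had 2.74 CPM of Sdc1.

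**Figure D3:**
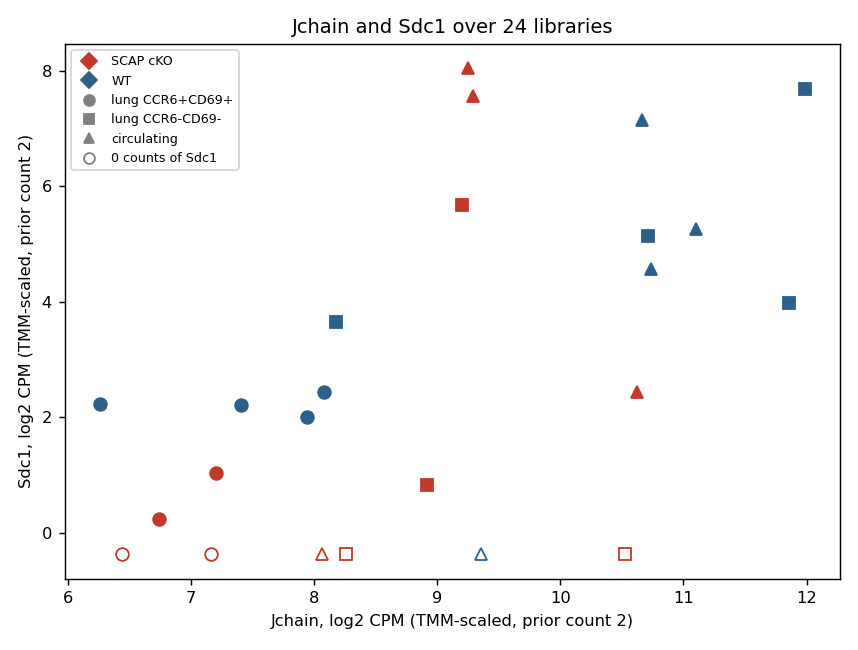
Sdc1 against Jchain as log2 CPM (TMM-scaled, prior count 2) in 24 libraries, with SCAP cKO in red, WT in blue, a marker shape for each population and open markers for the 6 libraries with 0 counts of Sdc1. Lung CCR6+CD69+ libraries (circles) sit at the lower left, and Pearson's r over all points is 0.572.

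Many genes tracked either of the 2 more closely than they tracked each other. Ranked by Spearman's rho over the 24 libraries, on log2 CPM centred on the batch mean, Sdc1 was 96th of 6778 genes for Jchain and Jchain 238th for Sdc1 (rho 0.530; medians over all genes -0.05 for Jchain and 0.12 for Sdc1). Among the genes most like Jchain were Hsp90b1, the chaperone GRP94 of the endoplasmic reticulum (ER) (rho 0.805), Serinc5, a membrane protein (0.796), Cd55, a brake on complement (0.710), Dntt, the terminal transferase of early lymphocytes (0.705), and Sdc4, a syndecan (0.695). Without centring these rho were 0.632 to 0.803. Serinc5 averaged 6.74 and 10.4 CPM in SCAP cKO and WT lung CCR6+CD69+ libraries and 173 to 491 CPM in the other groups. Dntt, which was also on the plasmacytoid dendritic cell list, averaged 1.21 and 1.18 CPM in SCAP cKO and WT lung CCR6+CD69+ libraries, and 31.0 to 103 CPM elsewhere.

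The genes most like Sdc1 were others. They were Mgst2, a microsomal glutathione transferase (rho 0.823), Asph, an ER hydroxylase (0.821), Siglec1, a sialic acid receptor of macrophages (0.812), Socs2, a feedback inhibitor of cytokine signals (0.802), Rpn1, a subunit of the ER complex that adds N-linked glycans (0.789), and Galc, a lysosomal galactosidase (0.785). Without centring these rho were 0.766 to 0.882. Apart from Rpn1, which averaged 202 CPM and was at 0 in 1 library, these genes averaged 16.7 to 40.4 CPM and were themselves at 0 in 3 to 7 libraries. All these rho are over libraries that share depth and groups, and are given as a description.

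Other genes that plasma cells use were taken as lists. Of the plasma cell list, 9 members besides Jchain and Sdc1 were tested, and Xbp1, Irf4, Prdm1, Tnfrsf17 and Mzb1, which define the programme, were not analysed here. In WT lung CCR6+CD69+ against lung CCR6-CD69-, 7 of the 9 were lower and 0 were called (median log2 fold change -0.72, against -0.02 over all genes). Over all genes tested, 51.6% were lower and 0.295% were called in this comparison. Trp53inp1, a stress-induced nuclear protein, was at -1.27 ± 0.60, Cd93, a receptor kept by long-lived plasma cells, at -2.12 ± 1.51, and Creld2, an ER stress protein, at -1.51 ± 1.26 (edgeR, adjusted p 1 each). Trp53inp1 tracked Jchain (rho 0.677) more closely than Sdc1 (0.341), and Cd93 tracked Sdc1 (0.712) more closely than Jchain (0.313). The median rho of the 9 was 0.212 with Jchain and 0.341 with Sdc1. That of the 14 macrophage and monocyte markers tested was 0.180 and 0.366, so closeness to Sdc1 was not particular to the plasma cell list. In SCAP cKO against WT, 5 of the 9 were lower in lung CCR6+CD69+, 5 in lung CCR6-CD69- and 4 in circulating cells, and 0 were called. Over all genes tested, 47.5, 62.6 and 44.6% were lower in these comparisons.

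Genes that assemble and handle polymeric antibody, and those of the ER, were mostly lower in the same cells. Over all genes tested, 51.6% were lower in WT lung CCR6+CD69+ than in lung CCR6-CD69- (median -0.02) and 0.295% were called. Of 8 polymeric antibody genes tested besides Jchain, 6 were lower there (median -0.96) and 0 were called. Fcmr, the receptor for IgM, was at -1.74 ± 0.57 (edgeR, adjusted p 0.418). P4hb, a disulfide isomerase, was at -1.13 ± 0.55, and Pigr, which is scarce here at 3.72 CPM on average, at -5.10 ± 2.16 (adjusted p 1 for both). Hsp90b1 was at -1.08 ± 0.36 there (adjusted p 0.423) and fell in SCAP cKO lung CCR6+CD69+ against circulating cells (-1.61 ± 0.36, adjusted p 0.00489), with means of 1095 and 2628 CPM. The ER list repeats members of the lists above, Hsp90b1 and Hspa5 (BiP) of the polymeric antibody list and Creld2 of the plasma cell list among them. It is therefore not independent of those lists. Of its 10 chaperone and stress genes, 10 were lower in WT lung CCR6+CD69+ against lung CCR6-CD69- (median -1.04, 0 called), with Hspa5 at -0.79 ± 0.41 and Manf at -1.26 ± 0.74. Of these, 9 had a positive correlation with Jchain and 10 with Sdc1 (median Spearman's rho 0.43 and 0.51). Immunoglobulin rows, 73 in all of which 31 had a count, took 0.0159 to 0.261% of counts. Their share ordered the libraries as Jchain did in WT lung CCR6-CD69- and SCAP cKO circulating cells and not in the other 4 groups, and over the 24 libraries its rho was 0.426 with Jchain and -0.02 with Sdc1. Ighm and Igha were not analysed here.

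Among syndecans and heparan sulfate genes, Sdc4 was the one called when lung CCR6+CD69+ cells were set against the others. It averaged 41.8 ± 10.0 CPM in WT lung CCR6+CD69+ libraries, against 331 ± 91.2 CPM in WT lung CCR6-CD69- and 430 ± 228 CPM in WT circulating libraries (SD, n = 4). It fell in both comparisons (log2 fold change -2.97 ± 0.65 and -3.27 ± 0.66, edgeR, adjusted p 0.0171 and 0.00150). In SCAP cKO it fell against circulating cells (-2.73 ± 0.64, adjusted p 0.00759) and was at -1.89 ± 0.63 against lung CCR6-CD69- (adjusted p 0.217). Of 23 genes of this list besides Sdc1, 15 were lower in the first comparison (median -0.50), with 1 called, Sdc4. Over all genes tested, 51.6% were lower in that comparison (median -0.02) and 0.295% were called. The heparanase Hpse was at -1.57 ± 1.06 and Mmp9, a protease that can shed syndecans and a granulocyte marker, at 4.54 ± 2.07 (adjusted p 1 for both).

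Genes of B cell identity include several that hold back the plasma cell programme. Of 14 tested, 10 were lower in WT lung CCR6+CD69+ against lung CCR6-CD69- and 4 higher (median -0.19, against -0.02 over all genes), with 0 called and Ms4a1 at 0.38 ± 0.41. In SCAP cKO mice 9 were higher and 5 lower in the same comparison (median 0.20, against 0.26 over all genes), with 0 called. Over all genes tested, 41.5% in SCAP cKO and 51.6% in WT were lower. Against circulating cells 2 of the 14 were called, both lower in each genotype: Irf8 and Spib, transcription factors of B cells and plasmacytoid dendritic cells. Over all genes tested, 1.46% in SCAP cKO and 1.02% in WT were called lower there. Irf8 was at -2.36 ± 0.38 in SCAP cKO and -2.03 ± 0.37 in WT mice (edgeR, adjusted p 2.79e-05 and 3.96e-04), and Spib at -2.26 ± 0.49 and -1.76 ± 0.48 (adjusted p 0.00313 and 0.0451). Median rho of the 14 was 0.10 with Jchain and 0.07 with Sdc1.

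**Figure D4:**
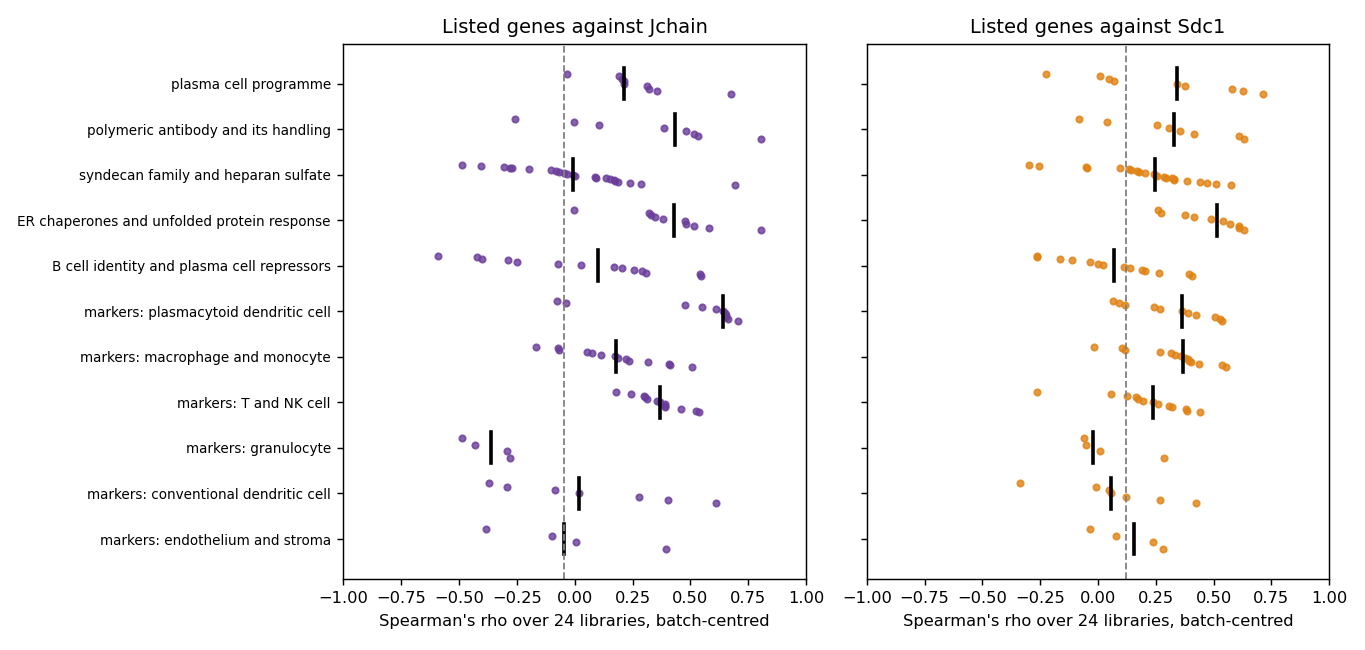
Spearman's rho of tested list genes with Jchain (left) and Sdc1 (right) over 24 libraries, on log2 CPM centred on the batch mean. Black bars are at list medians and a dashed line is at the median of all genes (-0.05 for Jchain, 0.12 for Sdc1). The epithelial list (3 genes tested) and the erythroid and platelet list (1 tested) are not drawn. The plasmacytoid dendritic cell list has the highest median with Jchain (0.64) and the ER list with Sdc1 (0.51). The lists were chosen with earlier results of these data known, so the medians are a description only.

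For each marker list, rho of the summed share of counts with Jchain and Sdc1 was computed. It was 0.568 and 0.209 for plasmacytoid dendritic cells, 0.491 and 0.300 for T and NK cells, and 0.344 and 0.295 for macrophages and monocytes. Epithelial markers had 0.377 and 0.403, and granulocyte markers -0.511 and -0.0829. Most abundant of the epithelial markers was Cdh1, at 190 to 409 CPM in SCAP cKO circulating libraries. Its own batch-centred rho was 0.461 with Jchain and 0.486 with Sdc1, and that of Epcam -0.242 and 0.214. The epithelial share therefore mainly follows 1 gene. The remaining lists were nearer 0: conventional dendritic cells 0.0696 and -0.149, endothelium and stroma -0.163 and 0.106, erythroid cells and platelets -0.00893 and 0.0504. As for depth, rho with total counts was -0.332 for Jchain and 0.165 for Sdc1, and with the number of genes detected -0.101 and 0.299. Epithelial markers, the other main source of Sdc1, took at most 0.0455% of counts, and between 6 and 11 of their 12 rows were at 0 in every library. These values are over the same 24 libraries and were not tested.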

How the data were processed

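The authors deposited 1 table of raw counts per gene (whole numbers, 18470 rows) for 24 libraries. FastQC, STAR, Salmon and the build mm39 are listed without versions, per the submitters' processing notes, and which of these tools gave the counts is not given in the sources used here. Xbp1, Irf4, Prdm1, Tnfrsf17, Mzb1, Ighm, Igha, Siglech and Bst2 were not analysed here.

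CPM is the count over the library's total, times 1e+06. Genes were tested with edgeR 4.0.16 (R 4.3.3; TMM, filterByExpr, quasi-likelihood test, robust, group plus batch, all 24 libraries, 6779 genes, Benjamini-Hochberg adjusted p under 0.05), with DESeq2 1.42.0 and limma 3.58.1 (voom) as alternatives. SE is the absolute log2 fold change over the square root of F. Correlations used 100000 permutations, or exact pairings at n = 8 (scipy 1.17.1). The edgeR fit and the permutation test were tested on simulated data. The genes named are Jchain, Sdc1, Scap, the 6 genes most like each of Jchain and Sdc1 (1 is not reported here), list members that were called or had the smallest p between WT lung CCR6+CD69+ and WT lung CCR6-CD69- cells, and the most abundant cell markers. The members and lists were chosen with earlier results of these data known. Same-numbered libraries were not treated as pairs.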

Additional observations from a re-analysis of the deposited data

Results flagged for a closer look

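Of the 12 sets of 4 CPM values examined, Jchain and Sdc1 in 6 groups each, 3 had a library far from the other 3. The rule used flags about 1 set in 20 by chance only if values are normally distributed. CPM here were uneven, and in the flagged Sdc1 sets the SD exceeded the mean (10.9 ± 21.2 CPM in SCAP cKO and 75.5 ± 107 CPM in WT lung CCR6-CD69-). That rate therefore cannot say whether 3 of 12 is more than chance gives, and the flags are a description. Jchain stood at 1426 CPM in SCAP cKO lung CCR6-CD69- replicate 4, the library of 129025 counts, against 499 CPM in the next highest of that group. Sdc1 stood at 235 CPM in WT lung CCR6-CD69- replicate 4, against 40.6 CPM in the next highest, and the same library had the most Jchain of all 24 (4677 CPM). Sdc1 stood at 42.7 CPM in SCAP cKO lung CCR6-CD69- replicate 1, a library led by Chil3, against 0.842 CPM in the next highest.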

How the results depend on the processing

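Values are log2 fold changes of the comparisons in the report, first group over second. Each batch alone has 2 libraries a group, and no call held there: for Jchain, WT lung CCR6+CD69+ against lung CCR6-CD69- gave -3.09 and -4.16 in batches 1 and 2 and against circulating -2.27 and -3.60, and SCAP cKO lung CCR6+CD69+ against lung CCR6-CD69- gave -2.04 and -2.95 and against circulating -2.74 and -1.93 (Sdc1 -6.32 and -11.3). With only the groups compared in the fit, the 2 comparisons of Jchain with lung CCR6-CD69- stood at -2.47 (SCAP cKO) and -3.67 (WT) and were lost, and the SCAP cKO one also with no batch term (-2.55), in limma voom (-2.14), without the 2 small libraries (-1.94) and without 4 (-1.69). In SCAP cKO lung CCR6+CD69+ against circulating, limma voom lost Jchain (-2.48) and Sdc1 (-5.57). Calls were gained for Jchain, SCAP cKO over WT, with no filter (lung CCR6-CD69- -1.81, average -1.22) and without the 4 libraries under 500000 counts or led by Chil3, chosen after seeing the data (-3.01 and -1.74). Direction turned only in uncalled results: Jchain in SCAP cKO lung CCR6-CD69- against circulating (RLE 0.41, DESeq2 0.42, no filter 0.00136, batch 2 1.02, only those groups 0.023, without the Chil3-led libraries 0.037), Sdc1 in the same WT comparison (batch 1 -2.31, only those groups -0.16), Sdc1 in SCAP cKO over WT (lung CCR6-CD69- in batch 1 0.99, circulating in limma voom -0.57), and the interactions (Sdc1 against lung CCR6-CD69-: limma voom 0.20, batch 2 5.04, without Chil3-led 4.54, without 4 4.43; Jchain against circulating: batch 1 -0.46). Leaving out 1 library at a time gave, for Jchain, -4.07 to -3.30 and -3.30 to -2.72 in WT lung CCR6+CD69+ against lung CCR6-CD69- and circulating, -2.77 to -1.82 and -3.00 to -2.03 in SCAP cKO, -0.86 to 0.50 in SCAP cKO lung CCR6-CD69- against circulating and -0.030 to 0.95 in the interaction with circulating. For Sdc1 it gave -9.39 to -6.67 in SCAP cKO lung CCR6+CD69+ against circulating, -1.04 to 1.68 in WT lung CCR6-CD69- against circulating, -0.36 to 2.43 in circulating SCAP cKO over WT and -2.20 to 4.07 in the interaction with lung CCR6-CD69-. The correlation of the 2 genes (0.572) no longer passed on raw CPM (0.410) or centred on group and batch (0.319). The number of genes called lay between 0 and 155 for WT lung CCR6+CD69+ against lung CCR6-CD69- and from 3 to 285 against circulating, from 8 to 342 and from 15 to 488 in SCAP cKO, and from 0 to 70 for the genotype average, the highest in SCAP cKO and for the average by DESeq2. The causes were not tested. Same-numbered libraries deviated together with r of 0.0795 to 0.228 (20 of 24 pairs over 0.1) and 18 of 24 libraries correlated best with their own number, a hint of pairing. Each number lies in 1 batch and batch is in the fit, so the same was computed within batches. There r was -0.0313 to 0.0861, with 0 pairs over 0.1. With 2 libraries per group and batch the 2 deviations mirror each other, so each r occurs for both numbers of a batch. These values therefore cannot settle whether equal numbers mark pairs. The numbers were not taken as pairs in the main fit, and blocks were run as alternatives. With a replicate block WT lung CCR6+CD69+ against lung CCR6-CD69- had 13 genes called in place of 20, with Jchain at -3.52, and with the block within genotype Sdc1 in SCAP cKO lung CCR6+CD69+ against circulating was -8.17 (edgeR, adjusted p 0.0522), the one call of the 2 genes it changed. Sdc1 in SCAP cKO lung CCR6+CD69+ against lung CCR6-CD69- had no count in batch 2 and no value there. The interaction of Sdc1 with lung CCR6-CD69- in batch 2 (5.04) therefore holds only the WT difference (-5.04) with its sign changed. Depth limits Sdc1 too: a count of 0 allows up to 23.3 CPM in the smallest library.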
